A study of Homo sapiens and Mus musculus with 19 samples.

Results

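The human HOX genes lie in 4 clusters, and their DNA methylation was compared between HepG2, a hepatocellular carcinoma line, and H1ES, an embryonic stem cell line. Members were all CCGG sites within fixed bounds around the clusters in hg38: HOXA at chr7:27080000-27220000, HOXB at chr17:48520000-48740000, HOXC at chr12:53930000-54070000 and HOXD at chr2:176080000-176200000. These bounds held 2042 of the 2317745 sites listed, of which 504 were in HOXA, 607 in HOXB, 469 in HOXC and 462 in HOXD, and they held the 39 protein-coding HOX genes of 19126 autosomal protein-coding genes. The assay, DARESOME, digests genomic DNA in steps with enzymes that cut at CCGG, and counts at each site the tags that mark unmethylated cytosine, 5-methylcytosine (5mC) and 5-hydroxymethylcytosine (5hmC). HepG2 and H1ES each gave 2 libraries of 1000 cells and 5 libraries of 1 cell, with no treatment named in the labels. The 1000-cell libraries were set against each other by line, and single cells were described beside them. The labels do not say whether libraries came from separate cultures, and the spread that the tests use may hold technical variation alone.

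HOX genes encode homeodomain transcription factors that give cells their position along the head-to-tail axis, and the order of the genes along each cluster follows the order of the body regions where they act. The clusters arose by duplication, so genes at the same place in different clusters are called paralogues and share a position number, from the anterior end (HOXB1 and HOXD1 at position 1) to the posterior end (HOXA13 and its paralogues). The clusters are rich in CpG, are covered by Polycomb repressive marks in embryonic stem cells, and are known to gain DNA methylation in many cancers.

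The promoters below show where the assay could read a HOX gene. They are the RefSeq windows (GRCh38.p14, 300 bases, with 250 before the transcription start and 50 after it) with the most tags in the 1000-cell libraries, 1 per cluster where a window held tags. The only HOXB window found, that of HOXB1, held no CCGG and could give no tag, so HOXD gave 2. Each is printed along the strand of its gene, and capitals mark CCGG, the sequence the assay cuts.
HOXA7, chr7:27156626-27156925, minus strand: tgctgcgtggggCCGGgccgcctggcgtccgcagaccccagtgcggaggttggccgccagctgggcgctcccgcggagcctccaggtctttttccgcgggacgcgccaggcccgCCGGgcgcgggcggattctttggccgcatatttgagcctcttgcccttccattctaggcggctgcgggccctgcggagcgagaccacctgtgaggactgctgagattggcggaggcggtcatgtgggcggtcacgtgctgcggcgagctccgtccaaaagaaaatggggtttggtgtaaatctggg
HOXC5 and HOXC4 (1 shared window), chr12:54016638-54016937, plus strand: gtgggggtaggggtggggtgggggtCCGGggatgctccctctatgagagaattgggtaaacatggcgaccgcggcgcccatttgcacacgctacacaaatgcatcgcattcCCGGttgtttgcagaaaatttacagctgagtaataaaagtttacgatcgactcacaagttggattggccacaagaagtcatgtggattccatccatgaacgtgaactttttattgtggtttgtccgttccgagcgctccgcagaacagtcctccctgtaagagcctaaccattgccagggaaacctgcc
HOXD11, chr2:176107030-176107329, plus strand: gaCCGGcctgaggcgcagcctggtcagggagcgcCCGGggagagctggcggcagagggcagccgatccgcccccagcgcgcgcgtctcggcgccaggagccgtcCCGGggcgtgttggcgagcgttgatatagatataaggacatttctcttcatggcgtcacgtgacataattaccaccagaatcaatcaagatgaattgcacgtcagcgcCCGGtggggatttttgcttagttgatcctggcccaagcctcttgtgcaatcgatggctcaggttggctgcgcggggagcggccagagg
HOXD13, chr2:176092471-176092770, plus strand: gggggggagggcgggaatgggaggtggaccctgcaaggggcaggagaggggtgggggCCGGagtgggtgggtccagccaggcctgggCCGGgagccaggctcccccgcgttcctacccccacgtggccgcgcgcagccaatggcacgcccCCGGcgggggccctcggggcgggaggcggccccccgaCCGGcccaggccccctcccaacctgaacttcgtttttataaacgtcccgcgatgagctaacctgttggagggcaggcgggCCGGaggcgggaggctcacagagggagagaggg

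In the HOXD13 window, the site 17 bases after the start gave 14 and 10 tags in HepG2, of which 42.9% and 60% were 5mC, and 6 and 6 tags in H1ES, of which 16.7% and 0% were 5mC. In the HOXD11 window, the site 38 bases before the start gave 6 and 11 tags in HepG2 with 66.7% and 81.8% 5mC, and 9 and 6 tags in H1ES with 22.2% and 0% 5mC. Both sites were thus higher in each HepG2 library than in either H1ES library. In the HOXA7 window, the site 136 bases before the start gave 8 and 2 tags in HepG2 with 62.5% and 50% 5mC, and 10 and 4 tags in H1ES with 20% and 25% 5mC. The window shared by HOXC5 and HOXC4 gave 1 and 2 tags in HepG2 with 0% and 50% 5mC, and 9 and 3 tags in H1ES with none. RefSeq windows were found for 20 of the 39 genes, in 26 windows counted once each, and 22 of these held CCGG, a share of 84.6% against 63.1% of all 33558 autosomal windows searched for CCGG, which reads the same on both strands. Of the 59 CCGG in the HOX windows, 14 (23.7%) gave a tag in any 1000-cell library, so most promoter sites were not read at this depth, and no promoter was tested alone.

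The 1000-cell libraries held 4911898 to 6644517 tags over all sites. Inside the HOX clusters they held 2730 and 2294 tags in HepG2 and 2883 and 1947 tags in H1ES, at 26.4% to 28.3% of the HOX sites. Single cells held 224 to 1068 HOX tags in HepG2 and 294 to 619 in H1ES. As a check of the lines, the genes of the liver proteins HNF4A, APOC3, APOH and F2 had larger unmethylated shares in both HepG2 libraries than in either H1ES library, as did ALB with as few as 9 tags, whereas AFP was read by as few as 1 tag. Of the stem cell genes, POU5F1, ZFP42 and L1TD1 were less methylated in H1ES, but NANOG and DPPA4 had larger unmethylated shares in HepG2, against the direction of the other markers.

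Over all 4 clusters together the lines did not separate in 5mC: 42.0% and 45.6% of HOX tags were 5mC in HepG2, against 44.0% and 43.6% in H1ES. The means were 43.8% ± 2.50 in HepG2 and 43.8% ± 0.327 in H1ES (SD, n = 2 each). Over all other autosomal sites pooled the lines were far apart, with 61.2% ± 0.763 5mC in HepG2 and 93.9% ± 0.469 in H1ES, though not at the sites most crowded with CCGG, which had 36.3% in HepG2 and 37.4% in H1ES. DNA of the same length on either side of each cluster was also apart, with 57.5% ± 2.21 in HepG2 and 87.7% ± 0.681 in H1ES. In H1ES the HOX sites were therefore well below both their flanks and the rest of the autosomes, whereas in HepG2 the gap was smaller.

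Cluster by cluster, HOXA was more methylated in HepG2 and HOXB less. HOXA had 64.3% and 69.8% 5mC in HepG2 and 37.3% and 37.4% in H1ES, with means of 67.0% ± 3.88 in HepG2 and 37.4% ± 0.0645 in H1ES (SD, n = 2 each). HOXB had 34.0% and 35.3% 5mC in HepG2 and 55.1% and 56.4% in H1ES, with means of 34.7% ± 0.937 in HepG2 and 55.7% ± 0.915 in H1ES. HOXA was thus 29.7 points higher in HepG2 and HOXB 21.05 points lower (-21.05), each many times the spread between libraries, though 2 libraries against 2 allow only 6 splits and no exact two-sided permutation p under 0.3333. HOXC had 36.2% and 43.8% in HepG2 and 39.02% and 37.6% in H1ES, so the groups overlapped (difference 1.66 points, exact permutation p = 1). HOXD had 39.7% and 41.2% in HepG2 and 38.5% and 35.2% in H1ES, a difference of 3.55 points with the smallest exact permutation p possible, 0.3333. The small HOXC and HOXD differences turned direction under other weightings of the sites, to -3.02 points in HOXC when each site weighed the same and to -5.11 points in HOXD over the best-covered sites. The flanks of HOXA had 62.2% 5mC in HepG2 and 89.6% in H1ES, and those of HOXB had 60.8% in HepG2 and 88.2% in H1ES.

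**Figure D1:**
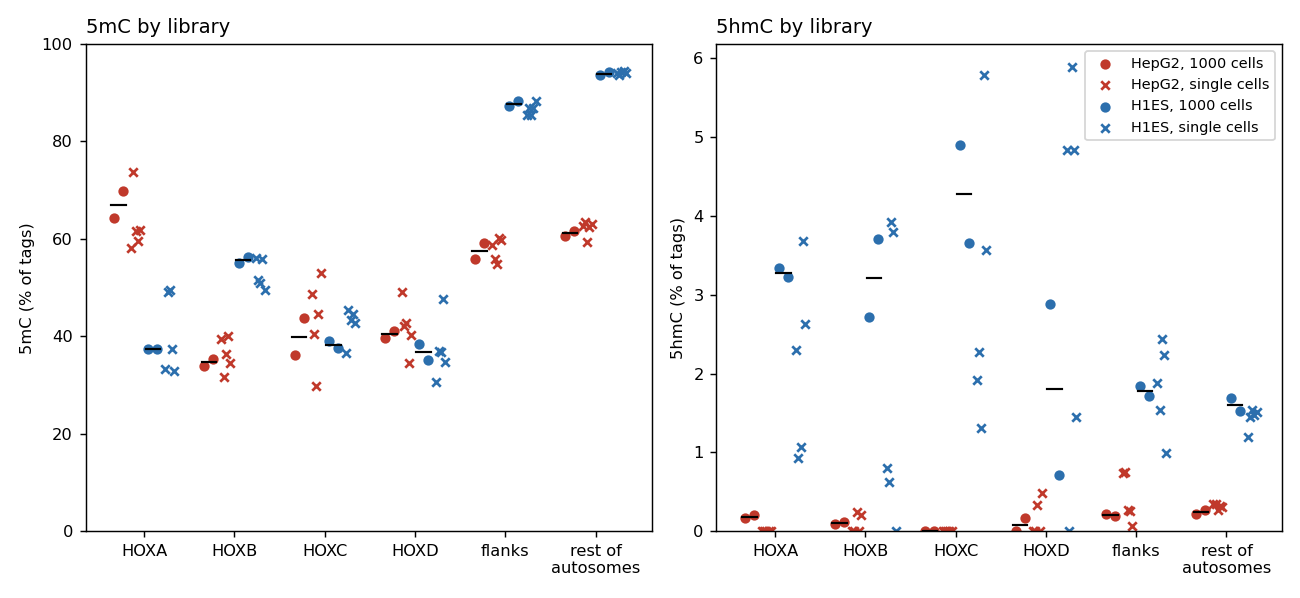
Percent of tags that were 5mC (left) and 5hmC (right) in each HOX cluster, in the flanks and in the rest of the autosomes, 1 mark per library (circles, 1000 cells, with their mean as a line; crosses, single cells), with HepG2 left of H1ES. In 5mC, HOXA is higher in HepG2 and HOXB higher in H1ES, in 1000-cell libraries and single cells, and HOXC overlaps between the lines.

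Single cells gave the same order in HOXA and HOXB. HOXA 5mC in single HepG2 cells ranged from 58.2% to 73.7% with a median of 61.6%, and in single H1ES cells from 32.9% to 49.5% with a median of 37.4%, so no cell of one line overlapped the other. HOXB 5mC ranged from 31.6% to 40.0% in HepG2 cells with a median of 36.4%, and from 49.5% to 56.0% in H1ES cells with a median of 51.6%, again without overlap. Within each cell, HOXA minus HOXB was 18.7, 42.1, 25.1, 19.7 and 27.3 points in the HepG2 cells, and -22.7, -2.50, -1.52, -18.5 and -16.6 points in the H1ES cells. All 5 HepG2 cells had more 5mC in HOXA than in HOXB, and all 5 H1ES cells had less, as in the 1000-cell libraries. The differences of H1ES cells 2 and 3 were near 0. The HOXB bounds take in 98.4 kb between HOXB9 and HOXB13 without a protein-coding HOX gene. Pooled H1ES cells had 75.2% 5mC there and 24.8% from HOXB2 to HOXB9, against 40.6% in HOXA. HOXC medians were 44.7% in HepG2 cells and 43.4% in H1ES cells, and HOXD medians were 42.1% in HepG2 cells and 36.8% in H1ES cells, with overlapping ranges. These values carry no test, since cells are not replicates of a culture.

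Gene by gene, with 1000 bp on each side, 23 of the 39 HOX genes had at least 20 tags in every 1000-cell library and were tested with edgeR's quasi-likelihood test over 15544 genes. At a Benjamini-Hochberg adjusted p under 0.05, 5mC rose in HepG2 in 8 of the 23, against 2.93% of all genes tested, and fell in 0, against 53% of all genes tested. No HOX gene was lower at an unadjusted p under 0.05, with DESeq2 or with limma, against 55.4%, 44.5% and 48.6% of all genes. The median log2 odds of 5mC, HepG2 against H1ES, was 0.80 over the HOX genes and -1.17 over all genes tested. Counted relative to that median gene, 20 HOX genes were higher and 0 lower, against 23.6% and 36.3% of all genes, and 0 were lower at an unadjusted p under 0.05. Relative to the odds of each library, 23 were higher and 0 lower, against 50.8% and 26.3% of all genes. Both HepG2 libraries lay above both H1ES libraries in 14 of the 23 genes, against 8.62% of all genes, and below them in 2, HOXB5 and HOXB13, against 66.2%. The 8 were HOXA3, HOXA5, HOXA6, HOXA7, HOXA10 and HOXA11, which are 6 of the 8 HOXA genes tested, with HOXC10 (1 of 6 HOXC genes) and HOXD13 (1 of 5 HOXD genes); none of the 4 HOXB genes tested was called. The windows are not independent, because HOXA3 spans HOXA4 to HOXA6, HOXB3 spans HOXB4, and HOXC4, HOXC5 and HOXC6 overlap each other. The other 16 genes were under 20 tags in at least 1 library.

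**Figure D2:**
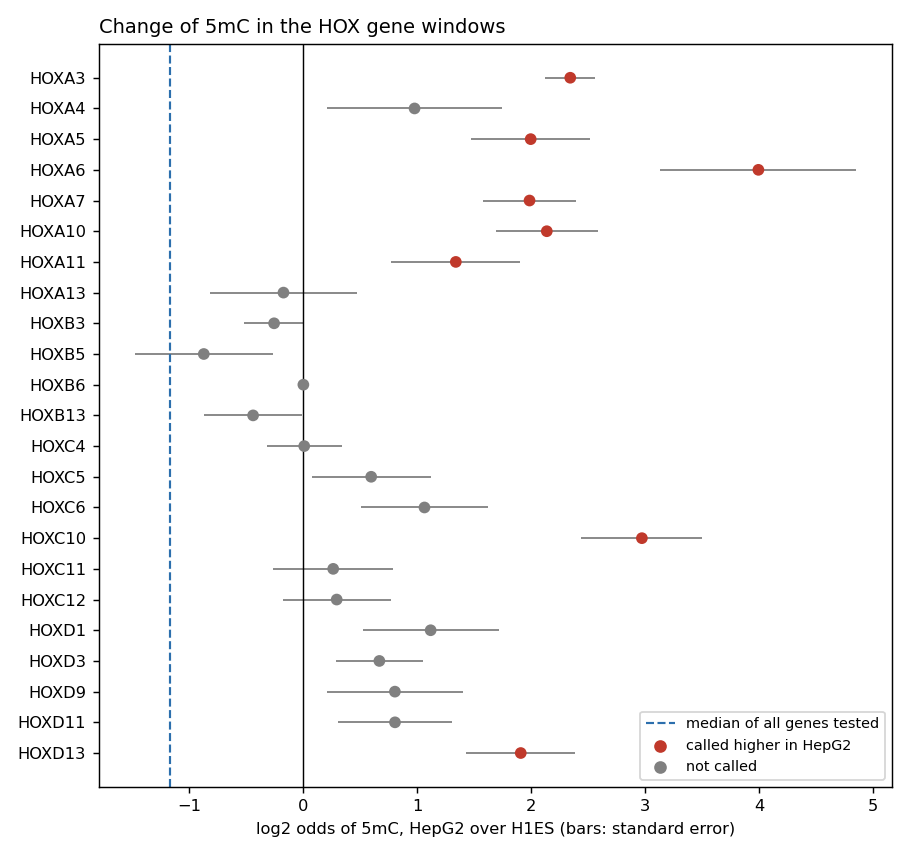
Log2 odds of 5mC in HepG2 against H1ES for the 23 HOX genes tested (edgeR, bars are standard errors, positive means higher in HepG2), with the median of all genes at -1.17. The 6 called HOXA genes, HOXC10 and HOXD13 are to the positive side.

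In HOXA, genes from several places along the cluster were higher in HepG2. HOXA3 (chr7:27107010-27152583), which acts in the pharyngeal arches and in the organs formed there, had 70.5% and 78.9% 5mC in HepG2 and 38.6% and 33.3% in H1ES, from 190 to 298 tags. Its 5mC rose with log2 odds of 2.34 (SE 0.218, edgeR adjusted p = 7.52e-24). HOXA7 (chr7:27153716-27156675), a gene of the trunk region, had 76.8% and 63.8% in HepG2 and 32.7% and 48.0% in H1ES, and rose with log2 odds of 1.98 (SE 0.409, edgeR adjusted p = 4.37e-06). HOXA10 (chr7:27170605-27179861), which acts in the uterus and limbs, had 62.7% and 68.9% in HepG2 and 26.0% and 35.6% in H1ES, and rose with log2 odds of 2.14 (SE 0.446, edgeR adjusted p = 5.63e-06). In all 3 genes both HepG2 libraries were above both H1ES libraries. HOXA6 was nearly filled in HepG2, with 96.2% and 95.2% 5mC against 58.1% and 52.0% in H1ES. HOXA5, known in lung development, had 57.8% and 65.5% in HepG2 and 31.1% and 23.5% in H1ES. HOXA11, a limb gene, had 50% and 41.2% in HepG2 and 26.1% and 22.2% in H1ES (log2 odds 1.34, edgeR adjusted p = 0.0339), a call that was lost when any 1 library was left out (adjusted p from 0.0609 to 0.220) and with DESeq2 (adjusted p = 0.235). HOXA4 and HOXA13 did not pass the test, and HOXA13 had 25% and 23.8% in HepG2 and 19.6% and 42.9% in H1ES, which overlap.

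Along HOXA, the widest differences lay over HOXA2 and HOXA3 up to the start of HOXA4, and the bins beyond varied without a steady order. The stretches that follow were drawn after the binned values were seen and are given without a test. From HOXA2 to the start of HOXA4, 28.2 kb, HepG2 had 97.6% and 95.2% 5mC and H1ES had 36.1% and 31.8%. From HOXA4 to HOXA7 the means were 63.4% ± 3.26 in HepG2 and 35.6% ± 2.86 in H1ES, and from HOXA9 to HOXA11 they were 57.1% ± 2.67 in HepG2 and 31.6% ± 0.253 in H1ES. Around HOXA13 the lines overlapped, with 31.5% and 34.5% in HepG2 and 25.3% and 39.1% in H1ES. The same anterior stretch in pooled single cells had 89.8% 5mC in HepG2 (Clopper-Pearson 95% interval 81.5% to 95.2%, 88 tags) and 38.4% in H1ES (28.8% to 48.699%, 99 tags). Sites assigned to HOXA2, which patterns the second pharyngeal arch, had 100% and 95.2% 5mC in HepG2 and 21.6% and 33.3% in H1ES, from 12 to 37 tags.

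**Figure D3:**
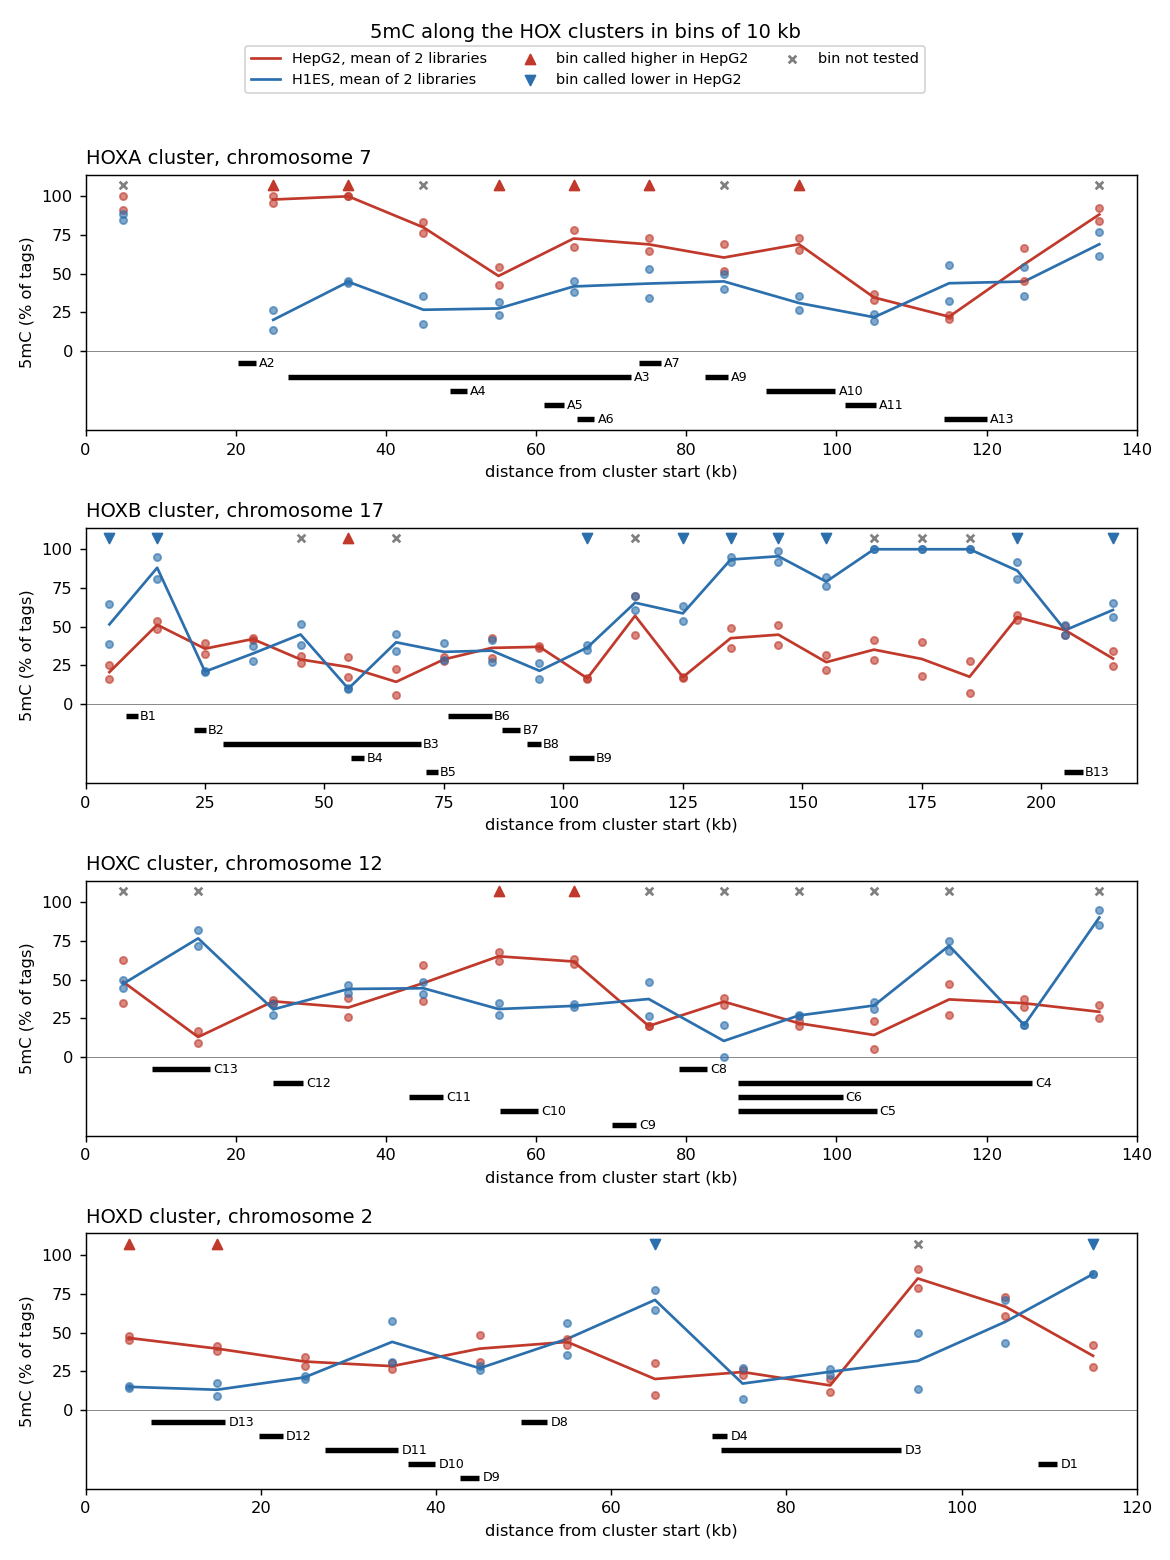
Percent of tags that were 5mC along each cluster (horizontal axis, distance from the cluster's start in kb) in the 1000-cell libraries of HepG2 and H1ES, by bins of 10 kb, with HOX genes marked below, triangles for bins that rose or fell and crosses for bins not tested; 1 gene and its bin are not shown. HepG2 is near the top from HOXA2 to the start of HOXA4, where H1ES is low, and the order is turned between HOXB9 and HOXB13.

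In HOXB the wide gap lay in the DNA between HOXB9 and HOXB13, which was less methylated in HepG2, while the gene-rich stretch from HOXB2 to HOXB9 was low in both lines. That DNA is 98.4 kb without a protein-coding HOX gene and with 1.64 CCGG per kb, against 4.01 per kb from HOXB2 to HOXB9. This stretch had 35.6% and 38.1% 5mC in HepG2 and 76.3% and 82.4% in H1ES, and in pooled single cells 37.6% in HepG2 (33.3% to 42.1%) and 75.2% in H1ES (69.9% to 79.9%). From HOXB2 to HOXB9 the lines were within a few points, with 31.4% and 30.2% in HepG2 and 29.0% and 26.8% in H1ES. Sites around HOXB13, a gene of prostate development, had 45.2% and 55.1% in HepG2 and 46.5% and 53.1% in H1ES.

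The HOXB genes with the smallest p values did not pass the test. HOXB5 (chr17:48591257-48593779) had 18.8% and 20.6% in HepG2 and 24.4% and 40.6% in H1ES (log2 odds -0.87, SE 0.605, edgeR adjusted p = 0.222). HOXB13 (chr17:48724763-48728750) had 40.0% and 48.2% in HepG2 and 50% and 52.6% in H1ES (log2 odds -0.44, SE 0.429, edgeR adjusted p = 0.404). HOXB3 (chr17:48548870-48590241) had 31.2% and 24.4% in HepG2 and 33.3% and 30.8% in H1ES (log2 odds -0.26, SE 0.261, edgeR adjusted p = 0.428). Relative to the median gene these 3 log2 odds were 0.28, 0.72 and 0.91, of the opposite sign. HOXB2, a hindbrain gene, and HOXB4 stood out among the untested genes, a choice made after their values were seen. HOXB2 had 72.7% and 91.7% in HepG2 and 11.8% and 0% in H1ES, from 7 to 22 tags, and HOXB4 had 62.5% and 46.2% in HepG2 and 13.04% and 14.3% in H1ES, from 13 to 23 tags. At the anterior end HOXB1 ran the other way, with 36.1% and 50% in HepG2 and 67.6% and 66.7% in H1ES, from 12 to 38 tags.

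HOXB held all 4 of the HOX sites with at least 10 tags in every 1000-cell library, and the 3 with the widest gap were lower in HepG2. A site 49 bases from HOXB5, at chr17:48591208, had 10% and 10% 5mC in HepG2 and 75% and 71.4% in H1ES. Single cells read it as 0 of 13 tags methylated in HepG2 and 8 of 8 in H1ES. The site at chr17:48653713, in the stretch between HOXB9 and HOXB13, had 76.5% and 60% in HepG2 and 100% and 90.0% in H1ES. The site at chr17:48714359, in the same stretch, had 80% and 70.0% in HepG2 and 100% in both H1ES libraries.

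In HOXC, HOXC10 was the gene that passed the test. HOXC10 (chr12:53985146-53990279), which acts in the lumbar region and hindlimb, had 56.8% and 61.9% 5mC in HepG2 and 14.5% and 17.9% in H1ES, from 28 to 62 tags. It rose with log2 odds of 2.97 (SE 0.532, edgeR adjusted p = 1.08e-07), the steepest change in HOXC and HOXD among the genes tested. HOXC6 (chr12:54016888-54030823) had 31.0% and 40.0% in HepG2 and 21.7% and 17.2% in H1ES (log2 odds 1.06, SE 0.557, edgeR adjusted p = 0.0954). HOXC5 (chr12:54016888-54035361) had 27.7% and 35.3% in HepG2 and 21.2% and 25.7% in H1ES (log2 odds 0.60, SE 0.522, edgeR adjusted p = 0.350). Neither passed the test, though the libraries of the lines did not overlap in either gene. From HOXC9 to HOXC4 the means were 29.0% ± 1.497 in HepG2 and 31.7% ± 4.25 in H1ES, and from HOXC13 to HOXC11 they were 38.7% ± 6.26 in HepG2 and 41.6% ± 1.10 in H1ES, with overlapping libraries in both stretches.

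In HOXD the digit gene HOXD13 was higher in HepG2, and the stretches with few HOX genes went both ways. HOXD13 (chr2:176087487-176095944), mutated in inherited malformations of the digits, had 45.2% and 35.7% 5mC in HepG2 and 14.3% and 16.7% in H1ES, from 36 to 73 tags. It rose with log2 odds of 1.91 (SE 0.480, edgeR adjusted p = 1.90e-04), and the promoter site printed above lies in this window. HOXD1 (chr2:176188668-176190907) had 45.7% and 52.9% in HepG2 and 37.9% and 21.7% in H1ES (log2 odds 1.12, SE 0.597, edgeR adjusted p = 0.102). HOXD3 (chr2:176152529-176173098) had 31.2% and 40.0% in HepG2 and 31.3% and 17.2% in H1ES (log2 odds 0.67, SE 0.384, edgeR adjusted p = 0.134). Neither passed the test, and the libraries overlapped for HOXD3. Between HOXD8 and HOXD4 the stretch had 36.6% and 27.4% in HepG2 and 59.4% and 54.8% in H1ES, and from HOXD1 to the end of the cluster it had 43.9% and 38.1% in HepG2 and 75% and 68.8% in H1ES. Between HOXD3 and HOXD1 the libraries overlapped, with 68.6% and 76.2% in HepG2 and 78.8% and 47.8% in H1ES, and pooled single cells had 83.3% in HepG2 (72.7% to 91.1%) and 45.5% in H1ES (30.4% to 61.2%). Among the untested genes, chosen after their values were seen, HOXD8 had 40.0% and 54.5% in HepG2 and 8.33% and 5.26% in H1ES, from 19 to 33 tags. HOXD4 had 24.0% and 35.7% in HepG2 and 4.55% and 0% in H1ES, from 5 to 25 tags, and its 0% rests on the 5. HOXD10 ran the other way, with 43.5% and 35.7% in HepG2 and 59.3% and 78.9% in H1ES, from 14 to 27 tags.

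Bins of 10 kb, which do not depend on the overlapping genes, moved in both directions inside the clusters. Of the 62 HOX bins 43 were tested with edgeR, and 5mC rose in HepG2 in 12, against 1.93% of all 69753 bins tested, and fell in 11, against 66.5%. HOXA had 7 of 10 tested bins higher and HOXB had 1 of 16 higher and 9 lower, while HOXC had 2 of 6 higher and HOXD had 2 higher and 2 lower of 11. The median log2 odds was 0.35 over HOX bins and -3.52 over all bins. Relative to the median bin, 35 HOX bins were higher and 0 lower, against 21.7% and 21.3% of all bins, with 1 bin lower at an unadjusted p under 0.05. Relative to the odds of each library, 32 were higher and 1 lower, against 16.6% and 33.4% of all bins. The fall in the 11 lower HOX bins was thus a call on the odds as measured, and was not called relative to the typical bin. Of the tested bins, 72.1% of HOX bins and 34.8% of all bins were under 50% 5mC in HepG2, against 74.4% of HOX bins and 1.76% of all bins in H1ES.

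Among the tested bins, those with the widest gaps in each cluster were these. In HOXA, chr7:27100001-27110000 over HOXA2 and the HOXA3 end had 100% and 95.8% 5mC in HepG2 and 26.7% and 13.6% in H1ES (log2 odds 7.22, SE 0.928, edgeR adjusted p = 4.72e-14). Both HepG2 libraries were above both H1ES libraries there. In HOXB, chr17:48670001-48680000 had 31.8% and 22.2% in HepG2 and 76.3% and 81.8% in H1ES (log2 odds -3.27, SE 0.602, edgeR adjusted p = 1.38e-07; 0.24 relative to the median bin). Also in HOXB, chr17:48650001-48660000 had 48.9% and 36.1% in HepG2 and 95% and 91.7% in H1ES (log2 odds -4.21, SE 0.735, edgeR adjusted p = 2.90e-08). Both lie between HOXB9 and HOXB13.

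In HOXC, chr12:53980001-53990000 over HOXC10 had 62.3% and 67.8% in HepG2 and 27.3% and 34.6% in H1ES (log2 odds 2.10, SE 0.439, edgeR adjusted p = 3.81e-06). The next bin, chr12:53990001-54000000, had 60% and 63.3% in HepG2 and 34.0% and 32% in H1ES (log2 odds 1.67, SE 0.601, edgeR adjusted p = 0.00852), a call lost with DESeq2 (adjusted p = 0.0823) and without either HepG2 library (adjusted p = 0.0559 and 0.0946). In HOXD, chr2:176190001-176200000 beyond HOXD1 had 42.2% and 27.7% in HepG2 and 88.1% and 87.5% in H1ES (log2 odds -3.72, SE 0.611, edgeR adjusted p = 3.47e-09). The bin chr2:176140001-176150000, between HOXD8 and HOXD4, had 30.2% and 9.68% in HepG2 and 64.7% and 77.4% in H1ES (log2 odds -3.11, SE 0.625, edgeR adjusted p = 1.47e-06; 0.39 relative to the median bin). Some bins under the tag minimum had wider gaps and were not tested. In HOXB, chr17:48700001-48710000 had 7.41% and 27.8% in HepG2 and 100% in both H1ES libraries, from 8 to 27 tags. In HOXC, chr12:53940001-53950000 had 9.09% and 16.7% in HepG2 and 71.4% and 81.8% in H1ES, from 6 to 11 tags. The bin chr12:54060001-54070000 had 25% and 33.3% in HepG2 and 95.2% and 85% in H1ES, from 12 to 21 tags. Both went the other way from the tested HOXC bins above. In HOXD, chr2:176170001-176180000, at the HOXD3 end, had 78.6% and 91.3% in HepG2 and 50% and 13.3% in H1ES, from 15 to 42 tags. HOXC10 thus lay in a block of higher 5mC, and the tested HOXD bins that fell lay outside the HOX gene bodies or at the HOXD1 end.

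Tags were also pooled by paralogue position, each site going to the HOX gene that holds it or to the nearest one. HepG2 was above H1ES at positions 2, 3, 6, 7, 10 and 12 and below it at positions 1, 4, 9 and 13, without overlap of libraries, and the lines overlapped at positions 5, 8 and 11. Position 7 had 79.3% and 68.2% 5mC in HepG2 and 32.3% and 52.9% in H1ES, from 44 to 93 tags. Most of these tags were from HOXA7, with 51 and 41 in HepG2 and 85 and 47 in H1ES. HOXB7 gave 3 to 8 tags per library, and its libraries overlapped. Position 2 had 53.5% and 60% in HepG2 and 27.5% and 29.5% in H1ES, and position 10 had 55.4% and 61.8% in HepG2 and 25.2% and 36.0% in H1ES. These 3 gaps were 31.1, 28.2 and 28.0 points. Position 9 had 34.0% and 38.2% in HepG2 and 62.7% and 61.4% in H1ES, a difference of -26.0 points. The differences at positions 1, 4 and 13 were -8.33, -12.4 and -10.6 points. The direction at these 4 positions came from sites away from genes: with sites within a gene or 1000 bp of it alone, HepG2 was higher by 16.01 points at position 1, 6.11 at position 4, 5.37 at position 9 and 6.16 at position 13. With 2 libraries against 2, no position could reach an exact permutation p under 0.3333.

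**Figure D4:**
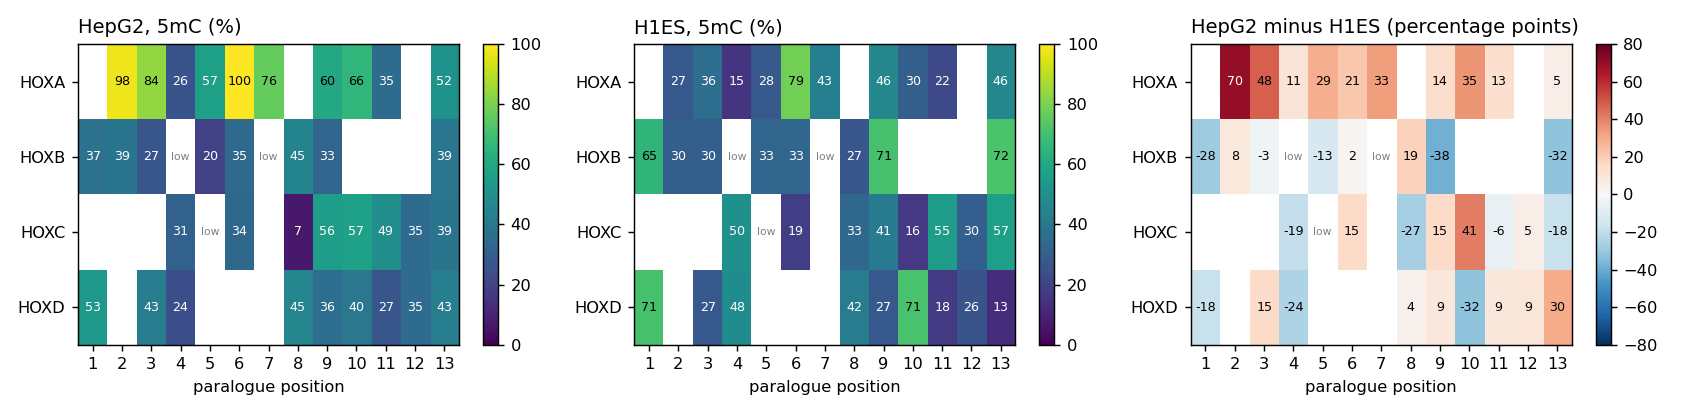
Percent of tags that were 5mC in HepG2, in H1ES, and HepG2 minus H1ES in percentage points (colour and number, means of 2 libraries of 1000 cells), by cluster (rows) and paralogue position (columns, 1 to 13, anterior to posterior), over the sites assigned to each gene. White cells hold no gene or are not shown, and genes under 10 tags in a library are marked low; HOXC10 and HOXD13 are higher in HepG2, and HOXB9, HOXB13 and HOXD10 are lower.

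Paralogues at the same position did not all move together, by the sites assigned to each gene, distant ones included. At position 9, sites assigned to HOXB9, which take in much of the stretch beside it, had a mean of 32.7% ± 2.45 5mC in HepG2 and 71.0% ± 2.71 in H1ES, whereas those of HOXC9 had 56.2% ± 1.39 in HepG2 and 41.1% ± 10.999 in H1ES. At position 13, HOXD13 had 42.7% ± 2.75 in HepG2 and 13.1% ± 1.98 in H1ES. HOXB13, whose assigned sites also take in distant ones, had 39.3% ± 0.154 in HepG2 and 71.7% ± 5.46 in H1ES. At position 10, HOXA10 and HOXC10 were both higher in HepG2, with 65.8% ± 4.32 and 57.1% ± 5.05 in HepG2 and 30.4% ± 6.21 and 16.5% ± 5.59 in H1ES, and HOXD10 was lower, with 39.6% ± 5.49 in HepG2 and 71.5% ± 10.6 in H1ES. At position 2, HOXA2 had 97.6% ± 3.37 in HepG2 and 27.5% ± 8.28 in H1ES, and HOXB2 had 38.7% ± 6.29 in HepG2 and 30.3% ± 3.13 in H1ES. Each of these values rests on 2 libraries, and the smallest, for HOXA2 and HOXD10, on as few as 12 and 14 tags. In the windows of the genes with 1000 bp on each side, the contrasts at positions 9 and 13 were smaller. HOXB9 had 20.9% in HepG2 and 23.6% in H1ES, HOXB13 44.1% and 51.3%, and HOXD13 40.5% and 15.5%. HOXC9 overlapped between the lines, with 37.5% and 40% in HepG2 and 50% and 9.09% in H1ES, from 5 to 11 tags.

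HOX sites were also read by how crowded CCGG was around them. In H1ES, HOX 5mC was 66.7% at sites with no other CCGG within 500 bp, 57.8% with 1 to 2, 36.7% with 3 to 5, 24.2% with 6 to 9 and 20.6% with 10 or more. Other autosomal sites in H1ES had 96.9%, 95.8%, 90.0%, 67.9% and 37.4% in the same order, so HOX sites were lower in every class. In HepG2 HOX 5mC was lowest at isolated sites, at 33.2%. It was 41.6%, 48.2% and 45.7% in the middle classes and 52.2% ± 9.04 at the most crowded sites. Other sites in HepG2 had 57.0%, 64.5%, 65.7%, 54.9% and 36.3%. Crowded HOX sites were thus more methylated in HepG2 than in H1ES, and isolated HOX sites less. Within HepG2 the libraries differed between 3 to 5 neighbours and 6 or more. Library 1 went from 47.4% to 43.5%, and library 2 from 49.1% to 51.0%. The clusters differed too between these classes in HepG2. HOXA went from 79.1% to 50.3% and HOXB from 35.7% to 33.6%, while HOXC went from 47.6% to 52.5% and HOXD from 37.8% to 52.7%. Depth moved with crowding, since 70.1% of isolated HOX sites and 9.81% of the most crowded ones had a tag in HepG2, and its part in the result was not tested. By cluster, sites with 6 or more neighbours had 50.3% in HepG2 and 23.2% in H1ES in HOXA, 33.6% in HepG2 and 27.7% in H1ES in HOXB, 52.5% in HepG2 and 25.8% in H1ES in HOXC, and 52.7% in HepG2 and 17.8% in H1ES in HOXD. Sites with 0 to 2 neighbours were lower in HepG2 in HOXB (34.5% against 71.9% in H1ES), HOXC (30.5% against 50.3%) and HOXD (30.2% against 49.9%), but higher in HOXA (76.5% against 56.0%).

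**Figure D5:**
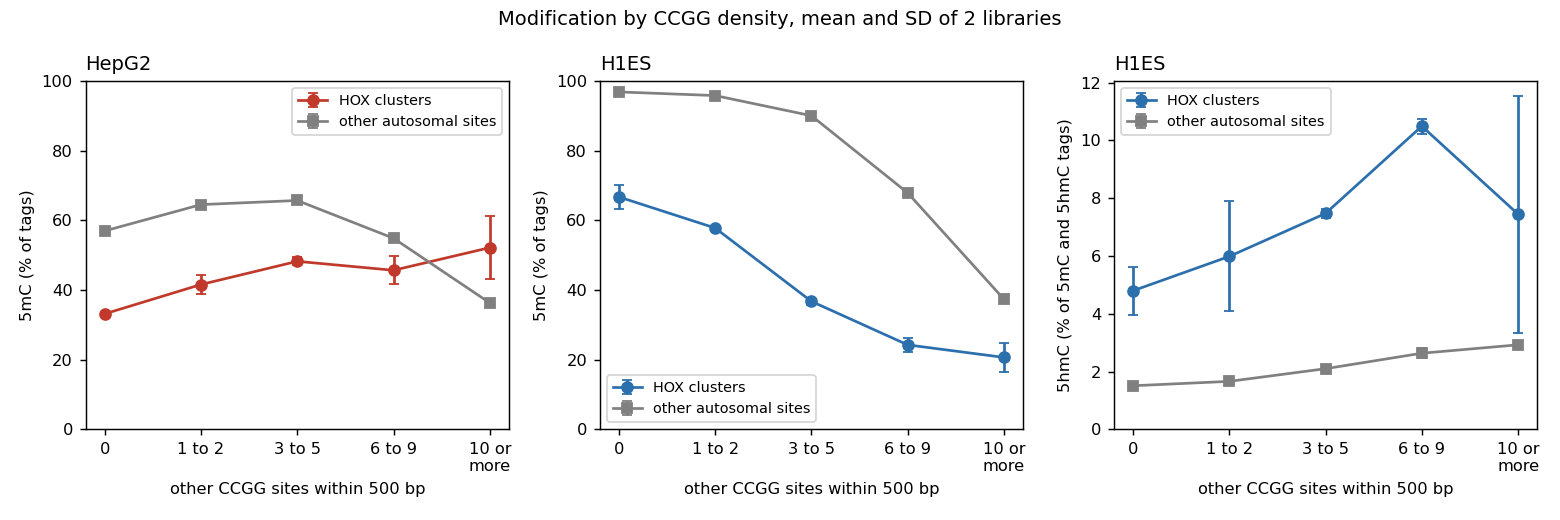
Mean percent of tags that were 5mC by the number of other CCGG sites within 500 bp, for HOX sites and other autosomal sites in HepG2 (left) and H1ES (middle), and 5hmC as a percent of 5mC and 5hmC tags in H1ES (right), with bars for the SD of 2 libraries of 1000 cells. In H1ES the HOX values fall to 20.6% 5mC at the most crowded sites, while in HepG2 they run between 33.2% and 52.2%, and in H1ES the HOX 5hmC share is above that of other sites in every class.

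Site by site, 66 HOX sites had at least 5 tags in every 1000-cell library. In HepG2 42.4% of them were at most 20% methylated and 27.3% at least 80%, and in H1ES 33.3% were at most 20% and 31.8% at least 80%. Of 170703 other sites as well covered, 24.2% were low in HepG2 and 1.79% in H1ES, and 50.1% were high in HepG2 and 94.9% in H1ES. Of the 22 HOX sites low in H1ES, 6 (27.3%) were high in HepG2, against 12.7% of the other sites low in H1ES. Of the 21 high in H1ES, 9 (42.9%) were low in HepG2, against 22.6% of the other sites high in H1ES.

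5hmC was near the limit of detection in HepG2 HOX DNA and present in H1ES. HepG2 had 2 and 3 5hmC tags over the 4 clusters, 0.0733% and 0.131% of HOX tags, and H1ES had 96 and 57, or 3.33% and 2.93%. The means were 0.102% ± 0.0407 in HepG2 and 3.13% ± 0.284 in H1ES, while the flanks had 0.207% in HepG2 and 1.78% in H1ES, and the other autosomal sites 0.249% in HepG2 and 1.61% in H1ES. In H1ES, HOX DNA as a whole thus had more 5hmC than its flanks. The HOXD mean was not above that of its flanks (1.80% ± 1.54 against 1.95%). Its H1ES libraries were far apart, at 2.89% and 0.714%, so the mean does not settle the order. Pooled single H1ES cells had 3.37% in HOXD (exact interval 1.86% to 5.60%, 14 of 415 tags). The flanks of all clusters together had 1.88% in these cells (1.40% to 2.45%), and the intervals overlapped. In HepG2 the pooled intervals of HOX DNA (0.0323% to 0.232%, 5 tags) and its flanks (0.114% to 0.348%, 14 tags) overlapped. As a share of modified tags (5mC and 5hmC), HOX sites had 0.230% in HepG2 and 6.67% in H1ES, against 0.406% in HepG2 and 1.68% in H1ES outside. By cluster, H1ES had 3.33% and 3.22% in HOXA, 2.72% and 3.71% in HOXB, 4.90% and 3.65% in HOXC, and 2.89% and 0.714% in HOXD. HepG2 had 0 5hmC tags in HOXC, among 423 and 363 tags, which allows shares of up to 0.709% and 0.826%. In pooled single cells, HepG2 had 4 of 2879 tags (0.139%, exact interval 0.0379% to 0.355%) and H1ES 53 of 2025 (2.62%, 1.97% to 3.41%), and the ranges over cells were 0% to 0.191% in HepG2 and 0.895% to 4.36% in H1ES.

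By gene, 21 HOX genes could be tested for 5hmC with edgeR, of 14077 genes. 1 was lower in HepG2, against 16.3% of all genes tested, and 0 were higher, against 0% of all genes tested, nor was any higher at an unadjusted p under 0.05 (0.0426% of all genes), with DESeq2 (0%) or with limma (0.0071%). Relative to the median gene, or to the odds of each library, 0 were lower, against 0.0213% of all genes in each case. The gene called lower was HOXB3, with 5hmC at 0% in both HepG2 libraries and at 0.546% and 6.85% in H1ES (log2 odds -5.52, SE 1.75, edgeR adjusted p = 0.0152), a fitted value that depends on the prior count because HepG2 is at 0. The call rests on H1ES library 2, without which the adjusted p was 0.653, and it was lost in 8 alternatives, DESeq2 among them (adjusted p = 0.131). The median log2 odds of 5hmC was -3.83 over the HOX genes and -2.40 over all genes. These values, and every 5hmC value here, rest on taking the third fraction of the tables as 5hmC, which no header states.

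The noncoding genes inside the clusters are given without a test. HOTAIRM1, in HOXA, had 82.9% and 88.2% 5mC in HepG2 and 17.5% and 10.5% in H1ES. HOXA-AS2 had 86.7% and 87.0% in HepG2 and 35.7% and 17.6% in H1ES, and HOXC-AS3 had 66.7% and 89.3% in HepG2 and 7.89% and 16.7% in H1ES. HOXB-AS1 was higher in HepG2 (48.3% and 41.3%) than in H1ES (18.9% and 23.3%), and HOXB-AS4 was lower (25.7% and 34.6% in HepG2, 50% and 62.5% in H1ES). HOTAIR, in HOXC, had 34.3% and 53.6% in HepG2 and 46.9% and 45.7% in H1ES, and HOTTIP, at the posterior end of HOXA, had 37.7% and 59.3% in HepG2 and 45.3% and 34.4% in H1ES, so the lines overlapped for both.

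The microRNA genes of the clusters are shown because miR-196 lies in 3 of them and is known to target HOX messages. The mature sequences are from RefSeq (GRCh38.p14), with the seed, bases 2 to 8, in capitals.
hsa-miR-196a-5p (MIR196A1 in HOXB and MIR196A2 in HOXC): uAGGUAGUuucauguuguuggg
hsa-miR-196b-5p (MIR196B in HOXA): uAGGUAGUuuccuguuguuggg
hsa-miR-10a-5p (MIR10A in HOXB): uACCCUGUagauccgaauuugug
hsa-miR-615-3p (MIR615 in HOXC): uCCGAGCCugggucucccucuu

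The miR-196 forms share 1 seed. MIR196B had 60% and 54.5% 5mC in HepG2 and 0% and 42.9% in H1ES, from 5 to 11 tags. MIR196A2, beside HOXC10, had 100% and 100% in HepG2, from 3 and 3 tags, and 11.1% and 0% in H1ES, from 9 and 1. MIR196A1 had 0% and 0% in HepG2, from 3 and 1 tags, and 66.7% and 50% in H1ES, from 3 and 2. MIR10B, in HOXD, had 26.1% and 5.88% in HepG2 and 25.8% and 0% in H1ES, from 10 to 31 tags. MIR10A and MIR615 gave at most 2 tags in a library. With so few tags these values do not separate the lines by themselves.

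Other genes of HOX biology were read from lists of related families and regulators. Of the 9 HOX cofactors of the PBX, MEIS and PREP families, which bind DNA with HOX proteins, 0 were higher and 4 lower in HepG2, with 0 higher at an unadjusted p under 0.05 or with DESeq2 or limma, against 2.93% higher and 53% lower of all genes. PKNOX2 had 37.1% and 40.3% in HepG2 and 84.6% and 90.3% in H1ES (log2 odds -3.42, edgeR adjusted p = 1.17e-111), and PBX4 had 48.4% and 47.5% in HepG2 and 99.7% and 98.1% in H1ES (log2 odds -6.78). Relative to the median gene 4 of the cofactors were higher and 3 lower, against 23.6% and 36.3% of all genes. The ParaHox and cluster-linked homeobox genes, relatives of HOX, had 6 higher and 1 lower of 9 tested, with a median log2 odds of 2.26. DLX5, a limb and jaw gene, had 67.3% and 81.6% in HepG2 and 11.8% and 15.2% in H1ES (log2 odds 4.19), CDX2, an intestinal regulator, had 62.5% and 66.1% in HepG2 and 21.4% and 25.9% in H1ES (log2 odds 2.57), and CDX1 fell, with 53.3% and 59.1% in HepG2 and 93.6% and 91.4% in H1ES (log2 odds -3.31). Of 19 Polycomb and Trithorax regulators tested, 3 were higher and 2 lower, against 2.93% and 53% of all genes. Their median log2 odds was -0.11. The 3 higher became 1 without H1ES library 1 and 1 with DESeq2, but 10 relative to the median gene and 16 relative to the odds of each library. Of all genes, 23.6% were higher relative to the median gene and 50.8% relative to the odds of each library. CBX7, a Polycomb protein that reads H3K27 methylation, fell with log2 odds of -2.53. DOT1L fell with log2 odds of -1.34 as measured but was at 0.93 relative to the odds of each library. Of 15 genes of retinoid and trunk signals, which turn HOX genes on in embryos, 3 were higher and 9 lower. The shares of all genes were 2.93% higher and 53% lower, and the median log2 odds of the 15 was -1.80. RARB had 41.2% and 44.5% in HepG2 and 96.0% and 96.5% in H1ES (log2 odds -5.09), ALDH1A2, the enzyme that makes retinoic acid, had 28.4% and 33.8% in HepG2 and 94.8% and 93.7% in H1ES (log2 odds -5.19), and RXRA fell with log2 odds of -2.06 as measured but 0.21 relative to the odds of each library.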

How the data were processed

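Each deposited table lists CCGG sites in hg38 with 3 values in the unit fraction and 1 tag count, with no header. The deposited fractions are shares of unmethylated, 5mC and 5hmC tags, and the deposited counts are tags per site. The identity of the fractions is not in the labels and was taken from the order of the columns. The submitters' processing notes name Bowtie2 2.3.4.1, cutadapt 1.5 and UMI-tools 0.5.4 without their roles. Tags of each kind were recovered as fraction times count, whole within 0.001414 at every human site. Genes came from RefSeq (GRCh38.p14), whose promoter CCGG positions were found in the site list.

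The 4 HepG2 and H1ES 1000-cell libraries were compared by the quasi-likelihood test of edgeR 4.0.16 in R 4.3.3, with a term for each library, 5mC or 5hmC tags against the rest, over all genes with 1000 bp on each side, or 10 kb bins, with at least 20 tags in every library and Benjamini-Hochberg adjusted p-values over all features at 0.05. The test was checked on simulated data. Pooled shares were compared by exact permutation (Python 3.11.15, SciPy 1.17.1). Single cells carry Clopper-Pearson intervals at 95%, and a count of 0 has a limit of 3 counts over the total; both cover counting error only. Figures used matplotlib 3.10.9.

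Members and gene lists were chosen with earlier results of these data known. Values by library are given for the 3 HOX genes per cluster with the smallest p, the 2 bins per cluster with the widest gap, up to 3 sites per cluster with at least 10 tags, and up to 3 genes per list; other names were chosen after their values were seen. Replicate numbers share only a number. Alternatives were DESeq2 1.42.0, limma 3.58.1 on logit shares (pseudocount 0.5), other tag minimums and bin sizes, genes without flanks, other reference tags, 2 rescalings, a replicate block and each library left out. The relative-to-median scaling was chosen after seeing the data. The 5 mouse libraries were not used here, and some genes are not reported here.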

Additional observations from a re-analysis of the deposited data

Results flagged for a closer look

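The HOXA 5mC share of single HepG2 cell 2, 73.7%, stood apart from the other 4 HepG2 cells, whose shares were 58.2% to 61.8%. It comes from 57 tags, with an exact 95% interval of 60.3% to 84.5%. Such a gap was looked for in 20 groups of values, and chance flags about 1 in 20.

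The HOXA share minus the HOXB share had opposite signs in the lines, over the cluster bounds used. The HOXB bounds take in 98.4 kb between HOXB9 and HOXB13 without a protein-coding HOX gene, with a 1000-cell mean of 79.4% 5mC in H1ES. From HOXB2 to HOXB9 the H1ES mean was 27.9%, below the 37.4% of HOXA, so the H1ES sign does not hold for that gene-rich stretch. The medians over libraries were 32.3 points in HepG2 and -18.4 points in H1ES at 1000 cells, and 25.1 points in HepG2 and -16.6 points in H1ES for single cells. Every library of each line had the sign of its line. The difference between the lines was not tested.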

How the results depend on the processing

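The cluster shares of HOXA and HOXB kept their directions with sites weighed equally, over the best-covered sites and with each library left out. The rescalings were not run on cluster shares. Of the 16 HOXB bins tested, 1 was higher and 9 lower as measured, but 10 were higher and 0 lower relative to the median bin. HOXA3, HOXA5, HOXA6, HOXA7, HOXA10, HOXC10 and HOXD13 kept their calls in all alternatives where they could be tested. Higher HOX genes, 8 of 23 tested, were 4 of 14 without flanks, 14 of 39 with no tag filter and 1 of 4 at a tag minimum of 50. They were 20 of 23 relative to the median gene and 23 of 23 relative to the odds of each library. Over all genes, 249 of 11353 were higher at a minimum of 50. Relative to the median gene 3674 of 15544 were higher, and relative to the odds of each library 7889 of 15544. Lower genes numbered 1 of 39 with no filter and 1 of 30 at a tag minimum of 10. Higher bins, 12 of 43 tested, were 7 of 28 in bins of 5000 bp and 3 of 5 at a minimum of 50. They were 35 of 43 relative to the median bin and 32 of 43 relative to each library. Lower bins, 11 of 43, were 17 of 62 with no filter and 1 of 5 at a minimum of 50. They were 0 relative to the median and 1 relative to each library. Over all bins, 303 of 10660 were higher and 7091 lower at a minimum of 50, and 148865 of 219034 were lower with no filter. For 5hmC the 1 lower gene became 0 with DESeq2, 2 without flanks, 5 with limma, 0 relative to the median gene, 0 relative to each library and 0 to 1 with each library left out. With the replicate block the higher and lower gene counts for 5mC stayed 8 and 0, and the 5hmC count was 0. The numbers do not pair the samples: the deviations of same-numbered libraries had r = 0.0149 over 15544 genes.

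HOXC reversed to -3.02 points with sites weighed equally and ran from -2.16 to 5.47 with a library left out, HOXD reversed to -5.11 at sites with at least 5 tags in every library, and the 4 clusters together ran from -1.77 to 1.77 (0.23 without H1ES library 1). Positions 1, 4, 9 and 13 reversed to 16.01, 6.11, 5.37 and 6.16 near genes, positions 8 and 12 to -0.47 and -0.47 with sites weighed equally. With a library left out, position 5 ran from -5.70 to 9.84, position 8 from -2.23 to 9.74 and position 11 from -3.23 to 9.84.

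In log2 odds relative to the median feature, HOXA13 was 0.98, HOXB3 0.91, HOXB5 0.28 and HOXB13 0.72, and the bins at chr17:48670001 and chr2:176140001 were 0.24 and 0.39. Relative to each library, HOXA13 was 2.06, HOXB3 2.03, HOXB5 1.37, HOXB13 1.83, DOT1L 0.93 and RXRA 0.21. Without flanks HOXB3 was 0.069, HOXB6 -0.98, HOXB13 0.013, HOXC4 -0.10 and HOXD11 -0.27. With the unmethylated tags alone HOXB6 was -0.17 and HOXC4 -0.066, and HOXC4 was -0.0032 with the replicate block. With a library left out, HOXA13 ran from -1.19 to 0.42, HOXB6 from -0.21 to 0.41, HOXC4 from -0.074 to 0.11, HOXC11 from -0.36 to 0.97 and HOXD11 from -0.21 to 1.86. The cause of these changes was not tested. A left-out library leaves 1 in its line, which is then assumed to vary like the others. The tag counts limit single genes, promoters and all 5hmC results.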
